A study of Mus musculus with 8 samples.

Results

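The cells described here are the 325 cells that the deposited annotation calls tumour cells, out of 654 annotated cells in 8 single-cell libraries. They came from 4T1 tumours grown under the skin of Balb/c mice and taken on day 10. 4T1 is a transplantable mouse mammary carcinoma line that spreads to distant organs in its syngeneic host. All tumours were digested for 1 h with a protease of Bacillus licheniformis, at one of 2 temperatures and with or without actinomycin D, a drug that blocks transcription by binding DNA. The groups were 37C with actinomycin D (55 and 76 tumour cells in aliquots A and B), 37C without inhibitor (41 and 67), 4C with actinomycin D (14 and 15) and 4C without inhibitor (24 and 33). The protocol gives the dose of the drug as 2 nM. Each group was 1 pooled suspension of 6 tumour pieces from different mice, and its aliquots A and B were 2 libraries of that pool. The warm tubes were run on an instrument with heaters and the cold tubes on one without, so temperature and instrument cannot be told apart.

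Carcinoma cells keep parts of the programme of the epithelium they come from, such as keratin filaments and secreted milk-type proteins, and can add mesenchymal genes such as vimentin. Dissociation of a tissue is itself a stimulus: detachment, shear and warmth activate kinases that switch on immediate-early genes within minutes, without new protein synthesis. The products of these genes are mostly transcription factors of the AP-1, EGR and KLF families, followed by chemokines and by feedback inhibitors of cytokine signalling. Because their transcripts are short-lived, a block of transcription during digestion keeps them from building up. Cold slows enzymes and transcription alike, which is why a protease active in the cold is used.

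Unique molecular identifiers (UMIs) tag each captured transcript molecule. Warm libraries held 87385 to 150065 of them in their tumour cells, and cold libraries 14959 to 45375. The library median of UMIs per tumour cell was 1502 ± 328 at 37C and 1044 ± 66.5 at 4C (SD, n = 4 libraries each), with no overlap. The two-sided exact permutation p over libraries was 0.0286, the smallest that 70 arrangements allow, and it treats aliquots as independent. Without any 1 library it was 0.0571, the smallest p that 7 libraries allow. No annotated tumour cell held more than 4963 UMIs. Unannotated barcodes counted as large, all above that level, numbered 41 and 24 at 37C with actinomycin D and 16 and 23 without. At 4C they numbered 0 and 0 with the drug and 1 and 0 without. They are not part of this comparison, and how many are tumour cells was not tested. No barcode was annotated as a tumour cell in more than 1 library, while pairs of libraries shared 4 to 19 listed barcodes. Aliquots of 1 suspension differed by more than counting noise (chi-square per degree of freedom 1.32 to 1.63). P-values in all comparisons below measure only the spread between such aliquots, not between mice or suspensions.

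The label was checked against Krt8, Krt18 and Epcam, and the first 2 were present. Krt18 and Krt8, the paired keratins of simple epithelium that neighbour each other on GRCm38 chromosome 15, gave 650 and 241 UMIs in tumour cells. A UMI of Krt18 was found in 66.2% of tumour cells. Its level, in UMIs scaled to CPM over all UMIs of a cell type, was 1116 CPM in tumour cells, against 24.7 CPM in T cells, 19.3 CPM in NK cells and 0 in macrophages. Krt8 was found in 40.9% of tumour cells, at 414 CPM. At least 1 of these keratins had a UMI in 237 of 325 tumour cells (72.9%, exact 95% interval 67.7 to 77.7%), and both in 111. Epcam, the third marker, which encodes an epithelial adhesion protein, had 0 UMIs in all 325 tumour cells. A count of 0 allows up to 5.15 CPM and up to 0.923% of cells with a UMI, counting error only. All barcodes of the 8 libraries together held 5 UMIs of Epcam. A low count of a single gene in these tables is a weak measure of absence, since Gapdh and Eef1a1, which all cells use, had only 150 and 320 UMIs over all barcodes.

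The 88 tumour cells with neither keratin were shallower, with a median of 951 UMIs against 1654 UMIs in cells with a keratin UMI. They carried other genes of the tumour cells: 67 of the 88 had Wfdc2 and 73 had Igfbp4. A UMI of at least 1 of Wfdc2, Igfbp4, Slpi, Sparc and Mgp was seen in 83 of the 88 (94.3%, exact 95% interval 87.2 to 98.1%). Cells with 0 counts of a gene tend to be shallower by selection, and whether depth sets the share without keratin was not tested.

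The genes whose level in tumour cells stood highest over that in the other annotated cells included secreted and matrix proteins, the keratins Krt8 and Krt18, membrane proteins, a homeobox gene and a cyclin. These genes also served to cluster the cells, so the ratios are a description with no test. Wfdc2, a secreted protein of the whey acidic protein family, had 2706 CPM in tumour cells against 15.5 CPM in the other annotated cells. Slpi, a secreted inhibitor of leukocyte proteases from the same family, had 3359 CPM against 99.5 CPM. Igfbp4, which binds insulin-like growth factors, had 2880 CPM against 84.0 CPM. Mgp, an inhibitor of calcification in matrix, had 1731 CPM against 24.9 CPM, and Sparc, a collagen-binding matrix protein, 1102 CPM against 9.33 CPM.

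The collagen chaperone Serpinh1 (834 against 6.22 CPM), the procollagen enhancer Pcolce (1114 against 15.5 CPM) and the basement membrane chains Lama5 (766 against 24.9 CPM) and Col4a1 (510 against 3.11 CPM) were also among the 20 with the largest ratio. So were the membrane proteins Tm4sf1, Itga3 and Sdc2, and Rhox5, a homeobox gene normally active in reproductive tissue (962 against 12.4 CPM). Tm4sf1, Itga3 and Cpe had 0 UMIs in all other annotated cells. Ccnd1, which encodes cyclin D1, the driver of entry into the cell cycle, had 1779 CPM against 118 CPM. Barcodes with at most 100 UMIs, used as a measure of free RNA, held the same genes at lower levels, such as 590 CPM of Wfdc2 and 335 CPM of Krt18.

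**Figure D1:**
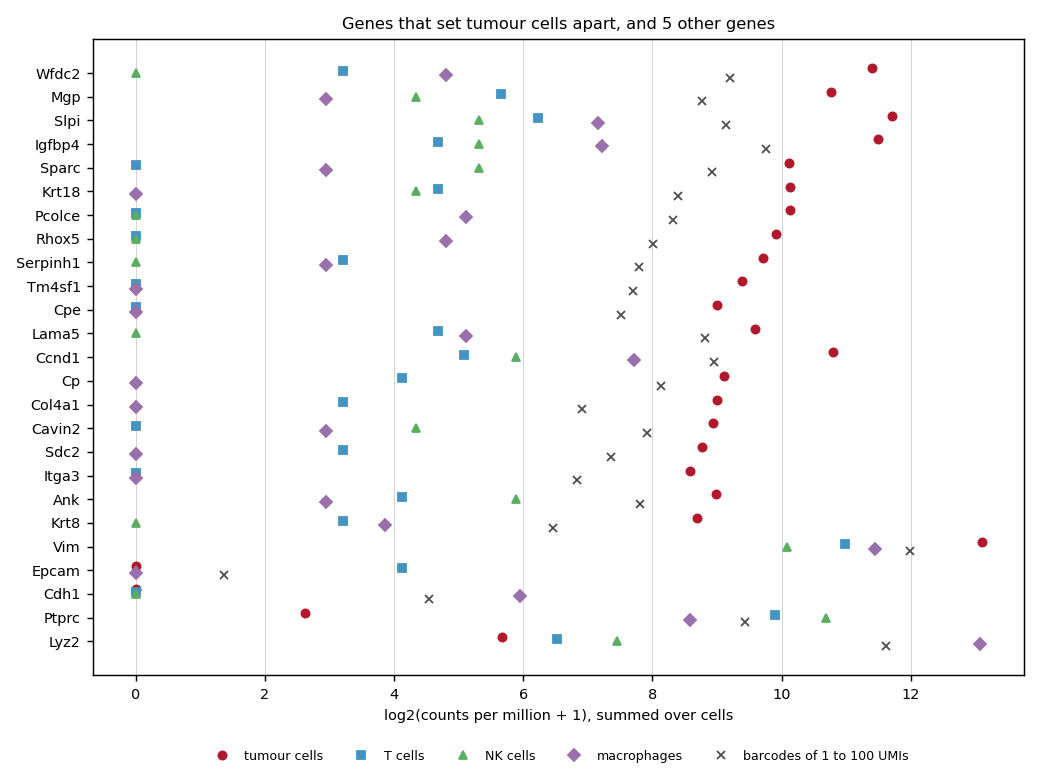
Level of 25 genes in 5 kinds of barcodes, as log2 of CPM plus 1 summed over cells of all libraries: the 20 genes with the highest ratio of tumour cells to other annotated cells, then Vim, Epcam, Cdh1, Ptprc and Lyz2. Tumour cells (red circles) lie right of every other type for the first 20 genes, Epcam and Cdh1 are at 0 in tumour cells, and the leukocyte genes Ptprc and Lyz2 are at 5.15 and 49.8 CPM there.

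Epithelial and mesenchymal genes were found in the same cells. Vim, the intermediate filament of mesenchymal cells, had a UMI in all 325 tumour cells, at 8800 CPM, including the 237 cells with a keratin. Of 24 luminal epithelial genes, 13 had any UMI in tumour cells. Those with more than 100 UMIs were Krt8, Krt18, the junction scaffold Tjp1 (161) and the protease inhibitor Spint2 (208). Cdh1 (E-cadherin), Cldn3, Cldn7, Grhl2, Dsp and Perp were among those with 0. Of 21 mesenchymal genes 19 had UMIs, led by Lgals1 (13919 CPM, 99.1% of cells), Vim and S100a6 (5374 CPM). The receptor kinase Axl was seen in 41.2% of tumour cells and Cd44, a hyaluronan receptor, in 34.5%. Of the transcription factors of epithelial-mesenchymal transition, Twist1 had 55 UMIs, Zeb2 36, Snai1 11, Zeb1 2 and Snai2 0. Of 11 basal and squamous genes 10 had 0 UMIs, Krt5, Krt14 and Trp63 among them, and 1 had 124 UMIs.

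Markers of other cell types were low. Ptprc (CD45), which marks leukocytes, had 3 UMIs in tumour cells, against 948 CPM in T cells and 1642 CPM in NK cells. The 14 macrophage markers together took 0.0126 to 0.0606% of tumour-cell UMIs at 37C and 0.00425 to 0.0375% at 4C, against 4.01% in macrophages and 1.11% in barcodes with at most 100 UMIs. The T-cell and NK-cell lists together had 24 and 31 UMIs in tumour cells. Fibroblast markers had 118 UMIs, 0.0203% of tumour-cell UMIs, against 0.0818% in barcodes with at most 100 UMIs. Of these 10 markers 6 had a UMI in tumour cells and 1 had enough counts to be tested, while Col3a1, Dcn, Lum and Fap were at 0. Of 8 endothelial markers 6 were at 0, Pecam1 and Kdr among them. At least 2 UMIs of leukocyte markers were carried by 17 of 55 and 19 of 76 tumour cells at 37C with actinomycin D (aliquots A and B) and by 4 of 41 and 6 of 67 at 37C without. At 4C they were carried by 1 of 14 and 0 of 15 with the drug and by 0 of 24 and 7 of 33 without. How doublets were treated was not given in the sources used here.

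Tumour cells varied among themselves in genes of a few groups. Spread was measured per gene as the variance between cells of 1 library over that expected from Poisson sampling, for 972 genes with at least 100 UMIs, whose median was 1.19. Slpi stood highest at 19.7. It had a UMI in 61.2% of tumour cells and up to 149 UMIs in 1 cell, and the 5 cells with most UMIs held 21.8% of its total. Spp1 (osteopontin, a secreted phosphoprotein that binds integrins) was at 8.53 and Mgp at 6.35. The chemokine gene Cxcl10, an interferon target, was at 5.60 with a UMI in only 11.4% of cells, and 5 cells held 50.0% of its UMIs. Ptgs2 (cyclooxygenase-2) was at 4.45 and Hspa5, the main chaperone of the endoplasmic reticulum, at 4.89.

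**Figure D2:**
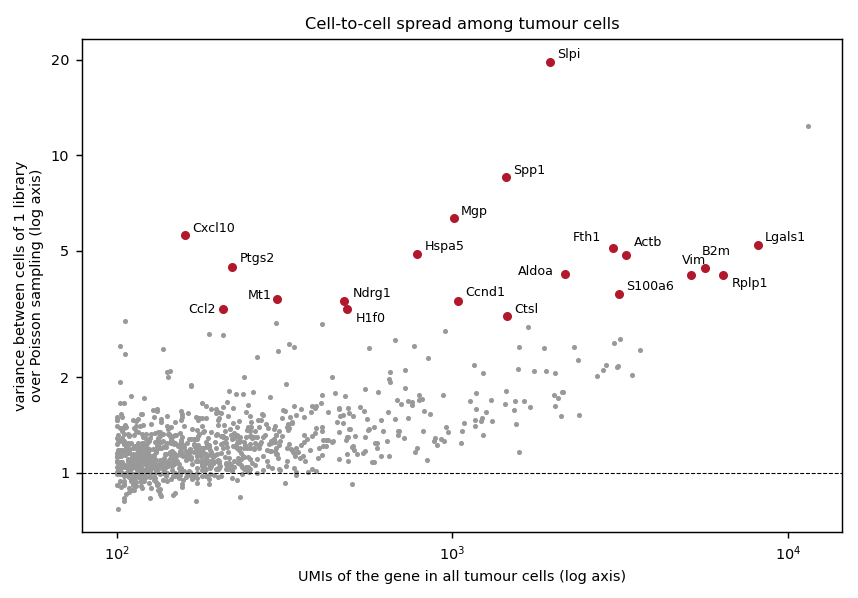
Each point is 1 gene with at least 100 UMIs in tumour cells, plotted by its UMIs in all 325 cells (log axis) against the variance between cells of 1 library over Poisson sampling (log axis). The 20 named genes with the largest ratio are in red, from Ctsl at 3.11 to Slpi at 19.7, and the dashed line marks sampling alone. The unnamed grey point near 12.4 is a predicted gene.

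A few pairs of the most variable genes varied together across cells. Counts were thinned to 500 UMIs in each of 317 cells, which left out 8 shallower cells, and all 190 pairs among the 20 most variable genes were compared by Spearman's rho as a description. These points share libraries, and sparse counts hold rho near 0. Their median rho was 0.00800, and 10 pairs lay beyond 0.2 in size. Slpi went with Mgp (0.31) and Spp1 (0.24), while Spp1 and Mgp were at 0.09, and the actin- and calcium-linked S100a6 with Lgals1 (0.32). Cxcl10 went with Ccl2 (0.25). Aldoa, a glycolytic enzyme, went with Ndrg1, a hypoxia target (0.24), and among 937 genes it lay nearest to the glycolytic gene Pkm (0.31), then Mif (0.28), Ndrg1, Ldha (0.22) and Bnip3 (0.21).

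The interferon-inducible GTPase gene Igtp had among its nearest genes Cd74 (0.24), Cxcl10 (0.22), Cpq (0.21) and Irgm1 (0.20). The class I antigen gene B2m lay nearest to H2-D1 (0.30). Actb and Ndrg1 ran against each other (-0.23), as did Aldoa and Rhox5 (-0.22). In the 237 cells from 37C and the 80 from 4C taken apart, rho for Aldoa and Pkm was 0.32 and 0.30, for Slpi and Mgp 0.28 and 0.35, and for Cxcl10 and Ccl2 0.20 and 0.51.

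The temperature comparison asks which transcripts of tumour cells differ between warm and cold digestion, averaged over the inhibitor. AP-1 genes, chemokines and a feedback inhibitor were higher at 37C, together with 3 actin-linked genes, and several genes of secreted proteins were lower. In edgeR's quasi-likelihood test on counts summed over the tumour cells of each library, 25 of 1756 genes were called at an adjusted p under 0.05 (1.42%), 16 higher at 37C and 9 lower. The values given per library from here on are TMM-scaled CPM of those sums. Where libraries of a gene are said not to overlap, the share of all genes tested without overlap was not measured.

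Fos, the AP-1 subunit and a standard readout of cell stimulation, lies at GRCm38 chromosome 12, 85473890 to 85477273. It had 273 and 445 CPM at 37C with actinomycin D (aliquots A and B), 1011 and 568 CPM at 37C without, 63.2 and 83.4 CPM at 4C with it, and 0 in both libraries at 4C without. The 4 warm libraries all exceeded the 4 cold ones. With 249 counts at 37C and 3 at 4C, Fos was 20.3-fold higher at 37C (exact 95% counting interval 6.87 to 99.2, adjusted p = 4.06e-07). Fosb, its paralogue, had 128 and 120 CPM at 37C with the drug, 709 and 451 CPM at 37C without, 63.2 and 0 CPM at 4C with it and 0 in both at 4C without. With 144 counts against 1, it was 35.2-fold higher (interval 6.23 to 1401, adjusted p = 0.000107). Jun, the partner of FOS proteins in AP-1, had 359, 306, 546 and 433 CPM at 37C, against 0, 167, 66.5 and 45.6 CPM at 4C. Its log2 fold change was 2.42 ± 0.46 (SE, adjusted p = 0.000934), and no library at 37C overlapped one at 4C. The calls of Fos, Fosb and Jun held in all 14 alternatives run for each.

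The RefSeq promoter windows of Fos (GRCm38.p6 chr12:85473640-85473939, plus strand) and Fosb (chr7:19309996-19310295, minus strand) are shown as the genes with the largest change, 250 bases before to 50 after the start. Capitals mark matches to 7 motifs searched on both strands.
Fos: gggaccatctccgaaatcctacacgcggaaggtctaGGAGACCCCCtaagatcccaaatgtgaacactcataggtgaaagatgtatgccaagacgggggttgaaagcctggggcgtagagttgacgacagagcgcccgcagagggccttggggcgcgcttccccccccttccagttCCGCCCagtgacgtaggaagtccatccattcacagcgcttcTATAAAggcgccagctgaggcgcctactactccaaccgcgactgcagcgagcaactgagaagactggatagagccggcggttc
Fosb: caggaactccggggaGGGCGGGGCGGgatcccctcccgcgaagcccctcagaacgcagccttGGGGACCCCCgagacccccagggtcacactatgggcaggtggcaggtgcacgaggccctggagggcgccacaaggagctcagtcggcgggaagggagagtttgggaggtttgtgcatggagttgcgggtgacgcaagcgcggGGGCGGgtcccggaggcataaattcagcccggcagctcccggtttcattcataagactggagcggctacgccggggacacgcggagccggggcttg
The Fos window holds 1 GC box (GGGCGG), 1 TATA box (TATAAA) and 1 NF-kB site, and the Fosb window 3 GC boxes, of which 2 overlap, and 1 NF-kB site. Motifs were counted in the windows of 14 of the 17 immediate-early genes tested. The other tested genes were left out of these counts, so the shares describe these 14 only. The GC box was in 11 of these 14 (78.6%) and in 35.9% of all 27025 windows, the NF-kB site in 3 (21.4%) and 8.18%, and the TATA box in 2 (14.3%) and 14.2%. The hypoxia element ACGTG was in 3 (21.4%) and 19.7%, the CArG box in 1 (7.14%) and 1.57%, and the AP-1 site TGANTCA and cyclic AMP element TGACGTCA in 0, against 7.93% and 1.88% of all windows. Such matches describe the letters and no binding.

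Of the 38 immediate-early genes on the list, 37 had UMIs in tumour cells and 17 passed the filter on low counts. For temperature 3 of the 17 were higher, Fos, Fosb and Jun, and 0 lower, with a median log2 fold change of 1.21 against 0.03 over all genes tested. Jund (1.21 ± 0.37, adjusted p = 0.0680), Klf2 (1.09 ± 0.34, 0.0783) and Atf3 (2.47 ± 0.71, 0.0557) were above 0 without passing. Fos had a UMI in 19.8% of 237 cells thinned to 500 UMIs at 37C, against 1.25% of 80 at 4C (43.5% and 2.33% unthinned).

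**Figure D3:**
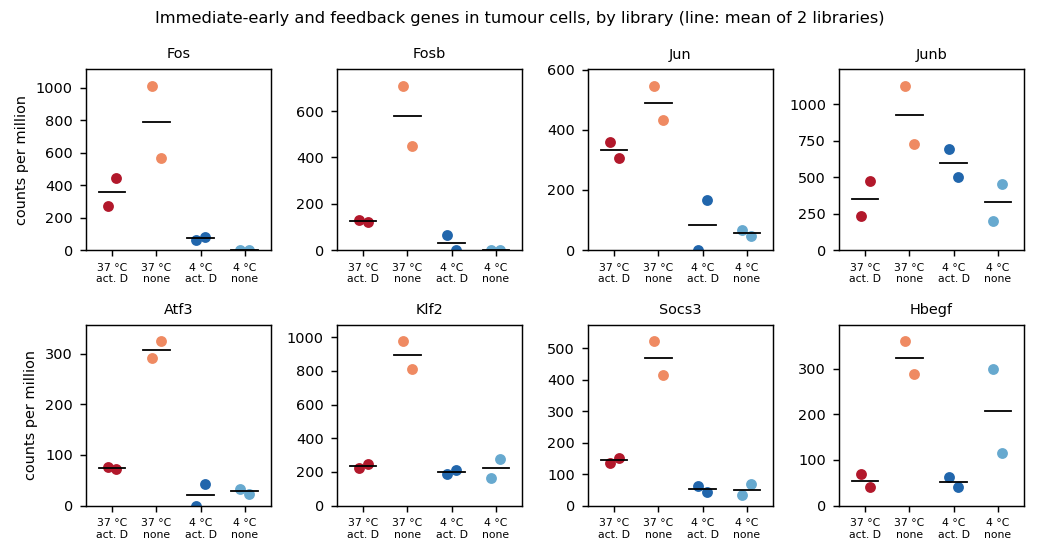
TMM-scaled CPM of 8 genes in the tumour cells of each library, 2 libraries (points) and their mean (line) per group. For Fos, Fosb, Atf3, Klf2 and Socs3 both libraries at 37C without inhibitor lie above all others, and for Hbegf the drug groups lie low at both temperatures.

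Chemokine genes were part of the same set. Cxcl1, which attracts neutrophils, had 85.4, 272, 198 and 280 CPM at 37C and 63.2, 0, 0 and 45.6 CPM at 4C. With 99 counts against 3 it was 8.08-fold higher at 37C (interval 2.68 to 39.8, adjusted p = 0.0171). Ccl2, which attracts monocytes, had 453, 359, 256 and 586 CPM at 37C, against 63.2, 0, 233 and 114 CPM at 4C (log2 fold change 2.65 ± 0.54, adjusted p = 0.00314). Neither gene's ranges overlapped, and how many of all genes tested do the same was not measured. Socs3, a feedback inhibitor of cytokine receptors, was higher by 2.28 ± 0.52 (adjusted p = 0.00932). These were 2 of the 4 chemokine genes tested, and 0 of 5 NF-kB feedback genes were called. DESeq2's Wald test did not call Cxcl1 (adjusted p = 0.233), Ccl2 (0.164) or Socs3 (0.194), and Cxcl1 was not called without the 37C library with actinomycin D B (0.193).

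Of 24 tested genes of the actin cytoskeleton 3 were called higher, Pfn1, Anxa2 and Actb, and 0 lower, with a median log2 fold change of 0.43 and 21 above 0. Pfn1 (profilin, which feeds actin monomers to filaments) had 889, 1275, 1000 and 983 CPM at 37C, against 569, 459, 499 and 479 CPM at 4C (1.06 ± 0.24, adjusted p = 0.00932). Anxa2, a membrane- and actin-binding annexin, was at 0.81 ± 0.20 (0.0187) and Actb at 0.50 ± 0.13 (0.0295). The list took 1.90 to 2.12% of tumour-cell UMIs at 37C and 1.50 to 1.74% at 4C, without overlap. Some other lists did not overlap either, as given below. Lgals1 (galectin-1, 0.41 ± 0.10, adjusted p = 0.0191), Tuba1b (a tubulin, 1.52 ± 0.38, 0.0227), Snrpf (a splicing protein, 1.48 ± 0.39, 0.0295) and the ribosomal protein genes Rps16 (1.22 ± 0.32, 0.0295) and Rps27a (0.91 ± 0.24, 0.0295) were also called. Actb, tubulin and ribosomal protein genes have near-identical copies in the genome, and the counting of reads shared between copies was not given in the sources used here. Without the 37C library with actinomycin D B, Pfn1 (adjusted p = 0.0981), Actb (0.0981), Lgals1 (0.180), Tuba1b (0.0981), Snrpf (0.131) and Rps16 (0.0694) were not called. Without 37C without inhibitor B the calls of Snrpf (0.0708), Rps16 (0.0735) and Lgals1 (0.138) were lost. Anxa2 was lost without 37C with actinomycin D A (0.0884), Rps16 without 4C with actinomycin D A (0.0655), and Actb without either of these or 37C without inhibitor A (0.0697 to 0.104).

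Several genes of secreted proteins were lower at 37C. Slpi had 2589 and 3613 CPM at 37C with actinomycin D and 3452 and 2056 CPM at 37C without, against 7967 and 5254 CPM at 4C with it and 4524 and 4473 CPM at 4C without. All libraries at 37C lay below all at 4C (log2 fold change -0.89 ± 0.15, adjusted p = 0.000107). Of 15 alternatives the call was lost only with no filter on low counts (adjusted p = 0.232). Spp1 had 1803, 2597, 2069 and 2362 CPM at 37C, against 4869, 3419, 4158 and 2716 CPM at 4C (-0.75 ± 0.16, 0.00314). Wfdc2 had 2230, 2863, 2150 and 2624 CPM at 37C, against 4300, 3294, 3493 and 3560 CPM at 4C (-0.56 ± 0.15, 0.0295). Neither overlapped between temperatures. Mgp was at -1.05 ± 0.22 (0.00314), with 1 library at 37C, without inhibitor A (2290 CPM), above 1 at 4C, with actinomycin D A (1897 CPM).

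Of 7 tested milk and secretory genes 3 were lower (Slpi, Spp1 and Wfdc2) and 0 higher, with a median log2 fold change of -0.56. The milk genes Csn2, Wap and Ltf of this list had 0 UMIs in tumour cells. The whole list of 16 took 0.822 to 1.08% of all tumour-cell UMIs in the warm libraries and 1.27 to 2.05% in the cold ones. In cells thinned to 500 UMIs, Slpi had a UMI in 43.5% of 237 cells at 37C and 60.0% of 80 at 4C, and Wfdc2 in 61.6% and 81.3% (unthinned 57.7% and 70.9%, and 85.4% and 90.7%). The call of Wfdc2 was lost in 9 of 15 alternatives, among them each that left out 1 library other than 37C with actinomycin D B or 37C without inhibitor B (adjusted p 0.0948 to 0.455). That of Spp1 was lost without the 4C library with actinomycin D A (adjusted p = 0.176) or without inhibitor A (0.174), and that of Mgp without 4C with actinomycin D B (0.0751).

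Slpi (GRCm38 chromosome 2, 164354070 to 164389095, minus strand) and Wfdc2 (164562413 to 164568510, plus strand) lie on the same stretch of chromosome 2, where genes of the whey acidic protein family cluster. Their RefSeq windows (GRCm38.p6 chr2:164356458-164356757 and chr2:164562465-164562764) are shown as the pair of neighbouring secreted genes that were lower at 37C.
Slpi: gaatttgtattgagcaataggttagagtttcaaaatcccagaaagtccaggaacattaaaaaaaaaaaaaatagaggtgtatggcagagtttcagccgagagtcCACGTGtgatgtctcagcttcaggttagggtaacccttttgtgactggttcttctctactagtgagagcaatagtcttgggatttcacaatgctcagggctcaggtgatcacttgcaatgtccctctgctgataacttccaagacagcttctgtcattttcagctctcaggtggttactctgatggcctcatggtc
Wfdc2: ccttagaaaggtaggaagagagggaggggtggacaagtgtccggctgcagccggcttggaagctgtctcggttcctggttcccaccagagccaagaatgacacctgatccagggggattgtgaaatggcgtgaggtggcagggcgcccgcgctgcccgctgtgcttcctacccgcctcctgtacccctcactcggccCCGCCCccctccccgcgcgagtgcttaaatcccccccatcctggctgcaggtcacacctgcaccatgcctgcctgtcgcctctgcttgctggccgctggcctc
The Slpi window holds the hypoxia element ACGTG on both strands, as 1 palindrome of overlapping matches, and no GC box. The Wfdc2 window holds 1 GC box and no hypoxia element.

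**Figure D4:**
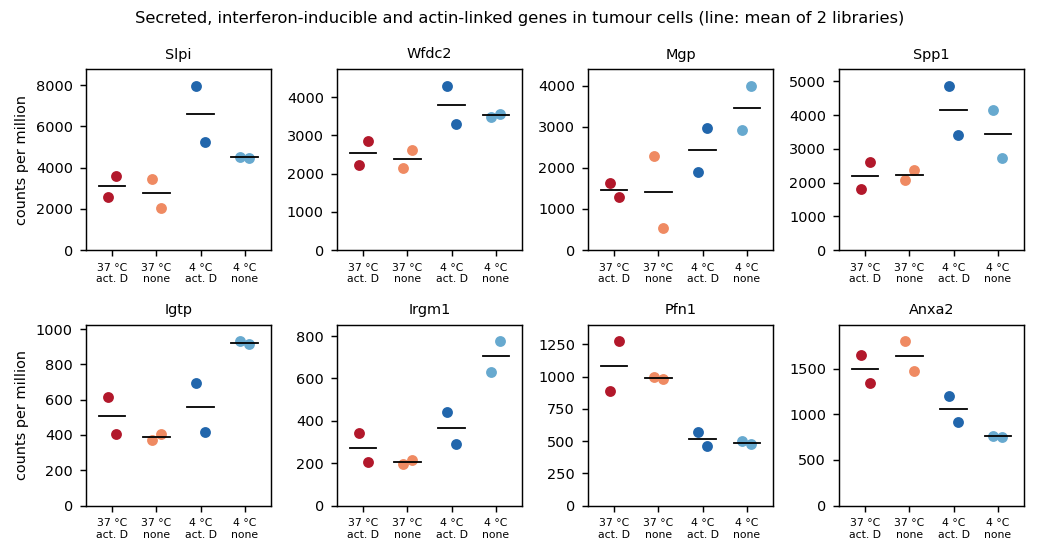
TMM-scaled CPM of 8 genes in the tumour cells of each library, points and mean as in the plot of induced genes. Slpi, Wfdc2 and Spp1 lie lower and Pfn1 and Anxa2 higher in all 4 libraries at 37C than in any at 4C, while Igtp and Irgm1 are highest at 4C without inhibitor.

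The nuclear RNA Neat1 (-1.25 ± 0.33, adjusted p = 0.0295), the hydrolase gene Abhd2 (-1.14 ± 0.27, 0.0130) and Cd74, the invariant chain of class II antigen presentation (-1.08 ± 0.30, 0.0426), were also lower at 37C, and 2 unnamed gene models made up the 9. Abhd2 was not called without 37C with actinomycin D B (0.0598), 4C with actinomycin D A (0.256) or 4C without inhibitor B (0.108), and Neat1 in 6 of the 8 fits that left out 1 library, all but 37C with actinomycin D B and 37C without inhibitor B. The Cd74 call was lost without 37C with actinomycin D B (0.183), 37C without inhibitor B (0.127), 4C with actinomycin D A (0.303) or 4C without inhibitor B (0.489). The number of calls was 13 without the 37C library with actinomycin D B, and 38, 63, 50 and 58 without 37C without inhibitor A, 4C with actinomycin D B, 4C without inhibitor A or 4C without inhibitor B. Dropping a small 4C library let more genes pass the filter (3421 to 3720). DESeq2's Wald test called 7, all among the 25. With the aliquots summed to 4 suspensions 23 genes were called, 19 of them among the 25, and Wfdc2 (0.105), Lgals1 (0.225), Actb (0.163) and Rps16 (0.0627) were lost. Without cells carrying 2 or more leukocyte UMIs there were also 25 calls, 20 of them shared, and Actb (0.0981), Rps16 (0.0954) and Snrpf (0.0750) were lost.

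Without inhibitor, 36 genes (2.05% of 1756) were called between 37C and 4C, 25 higher and 11 lower. Immediate-early genes made up 8 of the 25: of 17 tested, Fos, Fosb, Jun, Junb, Jund, Atf3, Klf2 and Ier3 were higher and 0 lower, with a median log2 fold change of 1.95 against 0.00388 over all genes tested. The list of 38 took 0.799% ± 0.117 of tumour-cell UMIs at 37C and 0.261% ± 0.0300 at 4C (SD, n = 2 libraries each). Fos, with 150 counts against 0, was at least 18.8-fold higher, and Fosb, with 111 against 0, at least 13.9-fold, taking the floor of 3 counts over the group. Klf2, a zinc finger factor of the Krüppel-like family, had 976 and 812 CPM at 37C, against 166 and 274 CPM at 4C (1.95 ± 0.39, adjusted p = 0.00225). Atf3, a stress-induced partner of AP-1, had 61 counts against 2 and was 11.4-fold higher (interval 3.03 to 96.6, adjusted p = 0.00889).

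Junb was higher by 1.40 ± 0.38 (adjusted p = 0.0368), Jund by 2.12 ± 0.49 (0.00889) and Ier3 by 1.98 ± 0.55 (0.0402). Feedback and inflammatory genes followed: Socs3 had 523 and 415 CPM at 37C, against 33.3 and 68.5 CPM at 4C (3.07 ± 0.59, 0.00180). Ptgs2 (2.11 ± 0.51, 0.0152) and Nfkbia, the inhibitor of NF-kB (1.60 ± 0.45, 0.0402), were 2 of 5 NF-kB feedback genes tested, and the other 3 were not called. Lgals3 (galectin-3, 1.18 ± 0.29, 0.0152), Tagln2 (1.16 ± 0.30, 0.0261) and Anxa2 (1.10 ± 0.27, 0.0168) were higher too, and so were the RNA helicase gene Ddx39 (39 counts against 1) and the glutathione transferase gene Mgst3 (48 against 1).

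**Figure D5:**
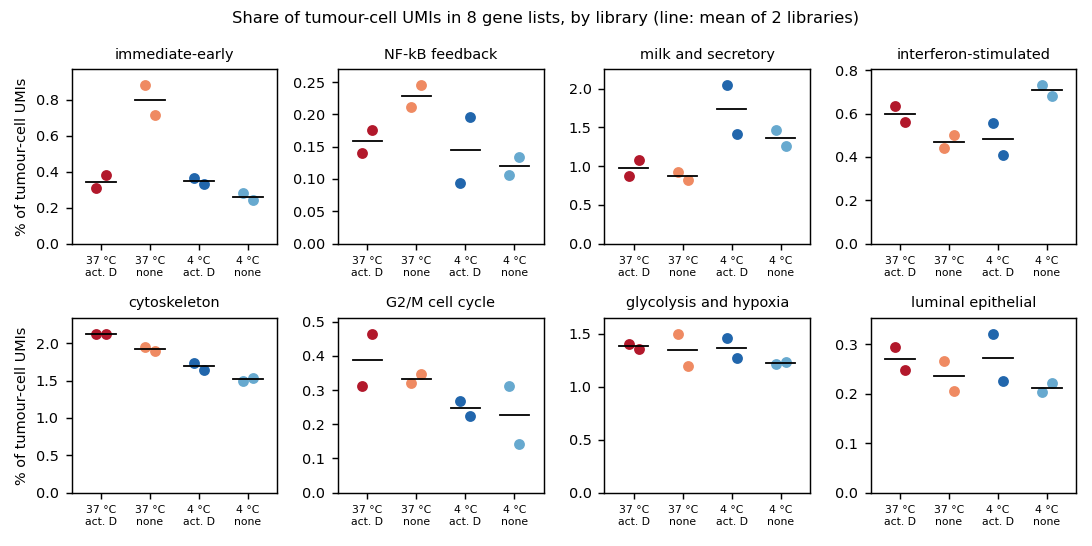
Percent of all tumour-cell UMIs that fall in 8 gene lists, for each library (points) and as the mean of 2 libraries per group (line). Immediate-early genes reach 0.882 and 0.716% at 37C without inhibitor and stay at or below 0.382% elsewhere, while interferon-stimulated genes are highest at 4C without inhibitor (0.732 and 0.683%).

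Interferon-inducible GTPases, which act against intracellular parasites, were lower at 37C without inhibitor. Igtp had 372 and 406 CPM at 37C, against 931 and 913 CPM at 4C (-1.24 ± 0.33, adjusted p = 0.0301). Irgm1 had 198 and 216 CPM against 632 and 776 CPM (-1.77 ± 0.38, 0.00657), and Ifi47 had 209 and 180 CPM against 798 and 593 CPM (-1.81 ± 0.40, 0.00657). The 3 genes lie on chromosome 11, and none of their ranges overlapped. With 2 libraries a group that is a weak measure, and the share of all genes without overlap was not measured. Of 16 tested interferon-stimulated genes 1 was called (Igtp), with a median log2 fold change of -0.998 and 2 above 0. The list took 0.471% ± 0.0448 of UMIs at 37C and 0.707% ± 0.0342 at 4C. With inhibitor the same median was 0.25, with 0 of 16 called. The ceruloplasmin gene Cp (-1.40 ± 0.38, 0.0350), Txnip (-3.21 ± 0.92, 0.0484), Fah (-2.77 ± 0.77, 0.0402), Mgp (-1.33 ± 0.29, 0.00657) and Tmsb4x, the actin-sequestering thymosin (-0.98 ± 0.27, 0.0402), were also lower.

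Leaving out the 37C library without inhibitor B left 16 calls, 4C without inhibitor A 14 and 4C without inhibitor B 12. DESeq2's Wald test called 2, Fos and Fosb, and cells thinned to 500 UMIs, with 324 genes tested, gave 9. Without 4C without inhibitor B the calls of Jun (adjusted p = 0.0666), Atf3 (0.230), Jund (0.396), Ier3 (0.470), Nfkbia (0.0823), Igtp (0.414), Irgm1 (0.332), Mgp (0.0823), Cp (0.138), Tmsb4x (0.928), Anxa2 (0.138), Tagln2 (0.606), Lgals3 (0.165), Mgst3 (0.449) and Ddx39 (0.546) were lost. Without 4C without inhibitor A those of Klf2 (0.0684), Atf3 (0.0691), Junb (0.385), Ier3 (0.213), Nfkbia (0.359), Ptgs2 (0.188), Igtp (0.183), Ifi47 (0.130), Cp (0.167), Anxa2 (0.124) and Ddx39 (0.0830) were lost. Without 37C without inhibitor B those of Atf3 (0.217), Ier3 (0.173), Nfkbia (0.0931), Ptgs2 (0.375), Igtp (0.120), Mgp (0.458), Cp (0.596), Tmsb4x (0.379), Tagln2 (0.173), Lgals3 (0.433) and Mgst3 (0.0601) were lost, and without 37C without inhibitor A those of Junb (0.208), Igtp (0.100) and Anxa2 (0.0968). Txnip and Fah each failed without any 1 of 6 libraries, all but the pair at 4C with the drug. Without cells carrying 2 or more leukocyte UMIs 22 calls were left, and Jund (0.0623), Ier3 (0.0898), Ptgs2 (0.100), Lgals3 (0.0715), Tagln2 (0.0503), Cp (0.177) and Fah (0.143) were not called. Fos, Fosb and Socs3 were called without any 1 library.

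With actinomycin D in both suspensions, 1 of 1756 genes was called (0.0569%) between 37C and 4C. This was Slpi, lower at 37C by 1.07 ± 0.21 on the log2 scale (adjusted p = 0.00869). The call was lost without 37C with actinomycin D A (0.226) or 4C with actinomycin D A (0.625), and without cells carrying 2 or more leukocyte UMIs (0.0653, log2 fold change -1.18). None of the 17 immediate-early genes was called in edgeR, with a median log2 fold change of 0.31 and 10 above 0. Over all genes edgeR gave 140 at an unadjusted p under 0.05, and DESeq2's Wald test called 0. Fos had 99 counts against 3 (4.91-fold, interval 1.63 to 24.2, adjusted p = 0.281) and Ccl2 107 against 1 (15.9-fold, interval 2.80 to 634, adjusted p = 0.100). The list's share of UMIs was 0.346% ± 0.0513 at 37C and 0.350% ± 0.0257 at 4C. The 4C libraries with the drug hold only 14 and 15 tumour cells, and leaving out 37C with actinomycin D B, 37C without inhibitor A, 37C without inhibitor B, 4C with actinomycin D B, 4C without inhibitor A or 4C without inhibitor B gave 4, 2, 3, 11, 15 and 15 calls.

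The inhibitor comparison at 37C asks what differs when actinomycin D is present during warm digestion. How far the drug blocked transcription was not tested. Of 1756 genes 14 were called (0.797%), 13 lower with actinomycin D and 1 higher. Of the 17 immediate-early genes tested 6 were lower, Klf4, Fosb, Ier5, Atf3, Klf2 and Junb, and 0 higher, with a median log2 fold change of -1.22 against -0.00268 over all genes tested and none above 0. Fosb had 128 and 120 CPM with the drug, against 709 and 451 CPM without (-2.20 ± 0.36, adjusted p = 0.000120). Klf2 had 222 and 246 CPM with it, against 976 and 812 CPM without (-1.92 ± 0.30, 8.17e-05). Hbegf, which encodes a growth factor that binds the EGF receptor, had 68.4 and 39.9 CPM with it, against 360 and 289 CPM without (-2.57 ± 0.48, 0.000871). In these 3 genes the libraries of the groups did not overlap, a weak measure with 2 libraries a group.

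Klf4 (-2.77 ± 0.63, adjusted p = 0.00874), Ier5 (-2.04 ± 0.46, 0.00821), Atf3 (-2.02 ± 0.45, 0.00821), Ccn1, a matricellular growth factor (-1.89 ± 0.48, 0.0339), Socs3 (-1.67 ± 0.35, 0.00471), Junb (-1.36 ± 0.30, 0.00821), the stress regulator Nupr1 (-1.35 ± 0.34, 0.0283) and the metallothionein Mt1 (-1.34 ± 0.32, 0.0178) were among the others that were lower, with 1 predicted gene. Fos (-1.10 ± 0.31, 0.0841) and Jun (-0.55 ± 0.33, 0.956) did not pass. Fos had 273 and 445 CPM with the drug, against 1011 and 568 CPM without. This comparison and the temperature comparison without inhibitor share the 37C libraries without inhibitor, so their values are given side by side and not counted as 2 pieces of evidence.

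Leaving out any 1 of the 37C libraries lost calls, and DESeq2's Wald test called 1. Most genes called without 37C without inhibitor A were not among those called with all libraries. Leaving out 37C with actinomycin D A ended the calls of Ier5 (adjusted p = 0.773), Atf3 (0.527), Socs3 (0.384), Junb (0.881), Mt1 (0.803), Nupr1 (0.705) and Ccn1 (0.450). Leaving out 37C with actinomycin D B ended those of Hbegf (0.0699), Atf3 (0.383), Socs3 (0.106), Nupr1 (0.400) and Ccn1 (0.512). Without 37C without inhibitor A those of Hbegf (0.0597), Ier5 (0.110), Atf3 (0.152), Socs3 (0.0965), Junb (0.176) and Mt1 (0.877) were lost, and without 37C without inhibitor B those of Ier5 (0.542), Atf3 (0.713), Nupr1 (0.148) and Ccn1 (0.0658). Klf2 and Fosb were called without any 1 library. Without cells carrying 2 or more leukocyte UMIs 6 calls were left, and Ier5 (0.268), Socs3 (0.101), Mt1 (0.168) and Nupr1 (0.338) were not among them.

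H2-Aa, a class II antigen gene of antigen-presenting cells, was the single gene higher with actinomycin D at 37C (2.31 ± 0.59, adjusted p = 0.0322). It had 197 and 219 CPM with the drug, against 46.5 and 36.1 CPM without. Its 56 UMIs with the drug lay in 28 of 131 tumour cells, and its 8 UMIs without in 5 of 108. Macrophage genes were also higher in tumour cells with the drug: Lyz2 had 24 UMIs with it and 3 without, and C1qa 8 and 0. In macrophages themselves H2-Aa was at 2766 CPM with the drug and 6265 CPM without. At 37C with the drug, macrophages held 906 UMIs of Lyz2 and 247 of H2-Aa, and tumour cells 24 and 56. Tumour cells at 4C without inhibitor had 16 UMIs of H2-Aa and 1 of Lyz2. The 14 macrophage markers took 0.0449 and 0.0606% of tumour-cell UMIs with the drug, against 0.0126 and 0.0159% without, and H2-Aa in barcodes with at most 100 UMIs was at 1220 CPM with the drug and 771 CPM without. Without the tumour cells that carried 2 or more leukocyte UMIs, H2-Aa stayed at a log2 fold change of 2.08 ± 0.70 but was not called (adjusted p = 0.360). It was also not called without any 1 of the 37C libraries (0.112 to 0.527, log2 fold changes 2.12 to 2.48). The part of macrophage RNA in the difference was not tested.

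At 4C the inhibitor comparison called 0 of 1756 genes (0.0%) in edgeR, which gave 91 at an unadjusted p under 0.05, and 0 with DESeq2's Wald test. The median log2 fold change of the 17 immediate-early genes was 0.74 against -0.07 over all genes. Their share of UMIs was 0.350% ± 0.0257 with the drug and 0.261% ± 0.0300 without. Hbegf had 63.2 and 41.7 CPM with it, against 299 and 114 CPM without (-1.90 ± 0.99, adjusted p = 0.888). Mgst3 had 253 and 417 CPM with it, against 33.3 and 0 CPM without (adjusted p = 0.0824). Leaving out 37C with actinomycin D A, 37C with actinomycin D B or 37C without inhibitor A gave 1 call.

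The test of the interaction, which asks whether the inhibitor acts differently at 37C and 4C, called 0 of 1756 genes (0.0%) in edgeR, with 119 at an unadjusted p under 0.05, and 0 in DESeq2's Wald test. The immediate-early median was -1.89, with 1 of 17 above 0, against 0.06 over all genes. Junb was at -2.10 ± 0.59 (adjusted p = 0.369) and Mgst3 at -4.94 ± 1.10 (0.0709). So a difference of the drug's effect between temperatures was not shown for any single gene, in libraries of as few as 14 cells. Between 1 and 4 genes were called without 37C with actinomycin D A, 37C with actinomycin D B, 37C without inhibitor A, 4C with actinomycin D A or 4C without inhibitor A.

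Most other programmes of the tumour cells had no called member for temperature. Of 27 lists, 19 had 0 called members for temperature, among them luminal epithelial genes (4 tested, median 0.18), glycolysis and hypoxia (15 tested, -0.14), class I antigen presentation (9, 0.01), the proteasome (17, 0.21) and heat shock (6, 0.46). Over all 1756 genes tested 1.42% were called, so 0 calls among 4 to 17 tested genes does not set a list apart. The 16 heat shock genes took 0.588 to 0.695% of tumour-cell UMIs in the warm libraries and 0.421 to 0.542% in the cold ones, without overlap. The lists of milk and secretory, cytoskeleton, growth factor, G2 and mitosis, and nuclear long noncoding genes did not overlap either. The other programme lists did, among them immediate-early genes (0.309 to 0.882% and 0.240 to 0.368%). Growth factor genes were barely apart (lowest 0.358% at 37C, highest 0.357% at 4C), as were genes of G2 and mitosis. Respiratory chain genes had 1 of 30 called higher, Ndufb9 (0.77 ± 0.19, adjusted p = 0.0227). Of 11 tested genes of G2 and mitosis 1 was called, Tuba1b, though all 11 were above 0 with a median of 0.74. In these lists the median over all genes was 0.03. Krt8 (0.80 ± 0.32, adjusted p = 0.207), Krt18 (0.48 ± 0.21, 0.305) and Vim (-0.08 ± 0.11, 0.799) did not pass. Both cold-inducible genes, Cirbp and Rbm3, had 56 UMIs together and were not tested.

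The response to temperature was also compared between tumour cells and T cells of the same libraries, over 802 genes. It differed for 2 genes (0.249%), Ly6a and Spp1, which were lower at 37C in tumour cells relative to T cells. Ly6a, which encodes the surface antigen Sca-1, had 889, 531, 384 and 667 CPM in tumour cells at 37C, against 1454, 1084, 665 and 1141 CPM at 4C. In T cells it had 1289, 2107, 1810 and 495 CPM at 37C, against 354, 931, 86.4 and 155 CPM at 4C. The T-cell values rest on 110 counts at 37C and 14 at 4C, with 1 to 9 a library at 4C. Their mean at 4C, 382 CPM, lay below the level of Ly6a in barcodes with at most 100 UMIs (501 CPM). The difference of the log2 fold changes was -3.09 ± 0.54 (adjusted p = 1.19e-05), and without 37C without inhibitor A it was not called (0.668). For Spp1 it was -2.53 ± 0.66 (adjusted p = 0.0457), with 46 T-cell counts at 37C and 10 at 4C. Barcodes with at most 100 UMIs held 1655 CPM of Spp1 and 501 CPM of Ly6a, against 462 and 1022 CPM in all T cells. How far free RNA makes up the T-cell counts of Spp1 or Ly6a was not tested. The Spp1 call was lost without any 1 library other than 37C with actinomycin D B. None of the 14 immediate-early genes tested was called (median 0.86, against -0.05 over all 802 genes), where edgeR gave 36 genes at an unadjusted p under 0.05 and DESeq2's size factors left 1 call. Fos had 9 counts in T cells at 37C and 1 at 4C, too few for the difference from tumour cells to be measured.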

How the data were processed

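RNA was measured in single cells by 3' UMI counting (SureCell kit on the ddSEQ system). The 8 deposited library tables hold raw UMI counts per gene and barcode, and the authors' deposited expression table holds the natural log of 1 plus scaled counts. CPM are counts per 1000000 UMIs of a sum. Of its values above 0, 99.986% were proportional to the raw counts (tolerance 0.01 counts). It was used for that check only. Per the submitters' processing notes STAR 2.7.1a, featureCounts 1.6.0, UMI-tools, SAMtools and Seurat were used with build GRCm38. How they were set, how cells were filtered and how reads shared between genes were handled was not given in the sources used here.

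Cell types were taken from the deposited annotation. Counts were summed over the tumour cells of each library and tested with edgeR 4.0.16 (quasi-likelihood test, TMM scaling, filterByExpr, 4 groups, Benjamini-Hochberg over all genes tested, calls at an adjusted p under 0.05) in R 4.3.3. Tumour cells and T cells were compared with library as a term. DESeq2 1.42.0, no filter, thinned cells, leaving out cells with leukocyte UMIs, a replicate block, aliquots summed to 4 suspensions (temperature only) and leaving out each library were alternatives. Exact tests used SciPy 1.17.1. The scripts were tested on simulated data. Intervals and floors (3 counts) cover counting error only. Gene symbols and promoter windows came from RefSeq, matched for 17520 of 17580 gene IDs.

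Named genes were the largest called changes of each comparison, the 20 highest by level, by spread and by ratio to other cells, and any list member. Predicted genes were counted, not named. The members and gene lists were chosen with earlier results of these data known. Some genes that these rules name are not reported here.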

Additional observations from a re-analysis of the deposited data

Results flagged for a closer look

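The difference between tumour cells and T cells in their response to temperature passed the test for 2 genes. For Ly6a the log2 ratio of 37C over 4C differed by -3.088 between tumour cells and T cells. All 4 libraries of tumour cells at 37C held less Ly6a than 3 of the 4 at 4C, while in T cells the mean was 1425 ± 706 CPM at 37C and 382 ± 383 CPM at 4C (SD, n = 4 libraries each). These T-cell means rest on 110 counts at 37C and 14 at 4C. For Spp1 the difference was -2.535, and in T cells the mean was 461 ± 414 CPM at 37C and 230 ± 185 CPM at 4C (SD, n = 4 libraries each), from 0 to 29 counts a library. Barcodes with at most 100 UMIs held 1655 CPM of Spp1, above both T-cell means.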

How the results depend on the processing

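Counts of calls are given in the order temperature, temperature without inhibitor, temperature with inhibitor and inhibitor at 37C, where edgeR called 25, 36, 1 and 14. DESeq2's Wald test called 7, 2, 0 and 1. With no filter on low counts there were 120 calls for temperature (120 higher, 0 lower, of 12836 genes) and 23 with inhibitor, and thinned cells gave 11, 9, 0 and 0. Without cells carrying leukocyte UMIs there were 22, 0 and 6 calls for the last 3. Summing aliquots to suspensions gave 23 calls for temperature. Leaving out 1 library gave 13 to 63, 12 to 42, 0 to 15 and 4 to 20 calls, 0 to 1 for the inhibitor at 4C, 0 to 4 for the interaction and 0 to 2 for tumour cells against T cells, with 1495 to 3720 genes tested in tumour cells. The last comparison gave 1 call with DESeq2 size factors, with no filter and with thinned cells. The cause of these changes was not tested. The difference in UMIs per tumour cell was 357 to 585 without 1 library. Aliquot letters did not pair the libraries (correlations of deviations -0.0336 to 0.112), and the replicate block gave 32, 38, 1 and 17 calls, with 0 at 4C and for the interaction. Of 4838 values of single genes, 4480 kept their direction and side of the threshold, 246 lost a call, 111 gained one and 1 reversed: Spp1 in tumour cells against T cells, where the difference was -4.41 to 1.00 without 1 library and 1.00 without 37C with actinomycin D A.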
